A study of Mus musculus with 10 samples.

Results

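The genes described here are 41 DNA replication and nucleotide synthesis genes, measured by RNA sequencing of mouse jejunum in a study of the enzyme retinol saturase, encoded by Retsat. They were taken from a list of genes known for these functions. The rule uses no measured value, but the list was drawn up with earlier results of these data known. All 41 were found among the 55414 gene identifiers counted. All 41 were above the filter on low counts, among 18654 genes tested. The RetSat ko group had 5 libraries and the control group had 5. RetSat ko mice were males of strain C57BL/6J, of genotype RetSat flox/flox, villin-Cre-ERT2 (+). Control mice were males of the same strain, of genotype RetSat flox/flox, villin-Cre-ERT2 (-). Both groups were given tamoxifen intraperitoneally for 5 days, and then ate a high-fat diet, in which fat supplied 60% of the energy, over 14 weeks. Age is not given in the labels. The villin promoter is active in intestinal epithelium, and Cre-ERT2 cuts the floxed alleles after tamoxifen, so the deletion is directed at epithelial cells. Control mice carry the floxed alleles and received tamoxifen but have no Cre, so loss of Retsat and the presence of active Cre cannot be told apart. The labels do not state that each library came from a different animal, and p-values therefore measure the spread between these samples.

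A cell copies its genome in steps that these genes encode. The origin recognition complex, CDC6 and CDT1 load the MCM helicase onto origins, CDC45 and the GINS complex activate it, and primase and the replicative polymerases copy both strands with the help of the PCNA ring and its loader. The building blocks come from ribonucleotide reductase, thymidylate synthase and their partner enzymes. In the small intestine DNA replication is known to take place in the crypts, where stem cells and their transit-amplifying daughters divide, while the absorptive cells of the villus have left the cell cycle.

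Depth ranged from 102844680 to 128730695 counts per library, with 24559 to 26180 genes detected. The 41 genes held between 132 and 13335 counts per gene and library. Retsat itself had 16.8, 16.0, 16.4, 15.4 and 33.4 counts per 1000000 (CPM) in RetSat ko libraries 1 to 5, against 518, 387, 576, 340 and 381 CPM in control libraries 1 to 5. It fell in RetSat ko (log2 fold change -4.49 ± 0.277 SE, edgeR adjusted p = 0.000101), so the labels hold in all 10 libraries. Markers of absorptive enterocytes were abundant in each library, with a summed level of 51931 to 78652 CPM in RetSat ko and 56072 to 89383 CPM in control. Library size, genes detected, mitochondrial share and the share of the 10 most abundant genes gave adjusted p of 0.571 to 0.746 between the groups (two-sided exact permutation tests, 4 measures, smallest possible raw p 0.00794).

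Levels were compared between genes as reads per kilobase of exon per 1000000 reads (RPKM). Pcna, which encodes the sliding clamp, had the highest level of the 41 genes, at 39.2 ± 1.15 RPKM in RetSat ko and 35.9 ± 2.79 RPKM in control (SD, n = 5 each). Pold2, the second subunit of polymerase delta, followed at 20.8 ± 3.13 RPKM in RetSat ko and 16.9 ± 1.13 RPKM in control. Mcm6 and Gins4 were the other members with a mean above 10 RPKM over all 10 libraries, 34 members lay at 1 to 10 RPKM, and 3 lay under 1 RPKM. Those 3 were Fen1, the flap endonuclease, Pole, the catalytic subunit of polymerase epsilon, and Orc1, the largest subunit of the origin recognition complex, which was lowest at 0.559 ± 0.135 RPKM in RetSat ko and 0.541 ± 0.105 RPKM in control. Subunits of 1 complex were not at 1 level. Over all libraries the 6 subunits of the MCM2-7 helicase ranged from 5.45 RPKM for Mcm2 to 13.2 RPKM for Mcm6, a ratio of 2.41. The 4 GINS subunits ranged from 1.02 RPKM for Gins3 to 12.7 RPKM for Gins4, a ratio of 12.5. The 2 subunits of the chromatin assembly factor CAF-1 were close, at 1.69 RPKM for Chaf1a and 1.62 RPKM for Chaf1b. Exon lengths were those of all annotated exons of a gene, so genes with rarely used exons are understated. Exons of another gene on the opposite strand cover 78.8% of the exon length of Fen1, 67.3% of Gins2 and 52.5% of Chaf1a. Levels of these genes may be understated as well. The low place of Fen1 and the closeness of Chaf1a to Chaf1b are therefore uncertain. Cdc6, Mcm7, Pcna, Rfc5, Tyms and Uhrf1 have processed pseudogenes of at least 95% identity over 500 bases or more, and their counts are uncertain to that extent. Those pseudogenes had median counts of 0 to 76 per library, the highest being Pcna-ps2, against 10341 for Pcna.

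**Figure D1:**
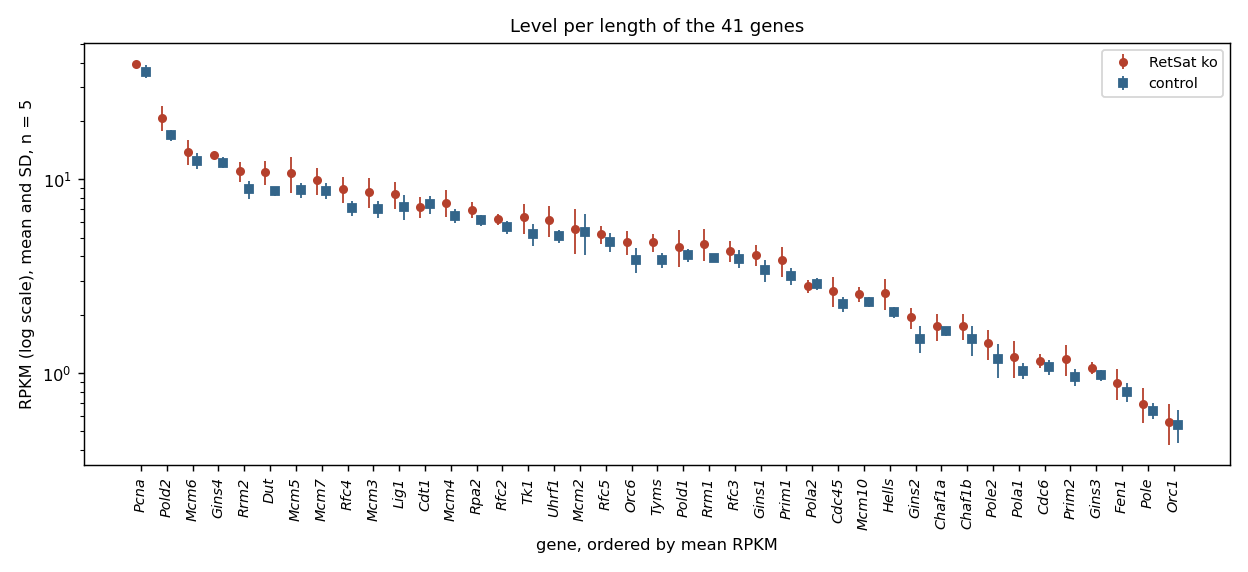
Level of the 41 genes in RPKM (log scale) in RetSat ko (red circles) and control (blue squares), as mean and SD of 5 libraries each, ordered by the mean over all libraries. Levels run from 39.2 RPKM in RetSat ko and 35.9 RPKM in control for Pcna to under 1 RPKM for Fen1, Pole and Orc1, and at each gene the 2 genotypes lie close together on this scale.

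RetSat ko jejunum had a higher mean level than control for 39 of the 41 genes, by small amounts, and no single gene passed the test. The median log2 fold change of the 41 genes was 0.22, against 0.02 over all 18654 genes tested, of which 53.9% were above 0. Called genes, those with an adjusted p under 0.05 over all genes in edgeR, numbered 0 among the 41, where 0.0214% of all genes were called higher in RetSat ko and 0.0107% lower. At an unadjusted p under 0.05, 16 of the 41 were higher and 0 lower, where 6.79% of all genes were higher and 5.45% lower. DESeq2, which called 0.36% of all genes higher, and limma-voom with sample weights, which called 0.0322% higher, also called 0 of the 41. The smallest adjusted p in edgeR was 0.291, for Tyms and Dut. The log2 fold changes ran from -0.04 for Cdt1 to 0.36 for Gins2, and the median standard error was 0.115.

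The libraries of the RetSat ko group were not alike. The mean of the 41 genes, as log2 CPM relative to the control mean, was -0.16, 0.34, 0.17, 0.27 and 0.35 in RetSat ko libraries 1 to 5, against 0.08, 0.07, -0.12, -0.11 and 0.07 in control libraries 1 to 5. RetSat ko 2 to 5 therefore lay above every control library and RetSat ko 1 below every one. RetSat ko 1 was under the control mean for 33 of the 41 genes and was the lowest of all 10 libraries for 19, where it was the lowest for 15.8% of all genes tested. RetSat ko 5 was the highest library for 21 of the 41 genes and RetSat ko 2 for 15, where they were highest for 11.3% and 14.1% of all genes. The remaining lowest values were in control 4 (13 genes), control 3 (8 genes) and control 2 (1 gene). Of all genes, 14.8% were lowest in control 4, 15.2% in control 3 and 5.53% in control 2. In bulk tissue, fewer cells of a type and less RNA per cell cannot be told apart.

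**Figure D2:**
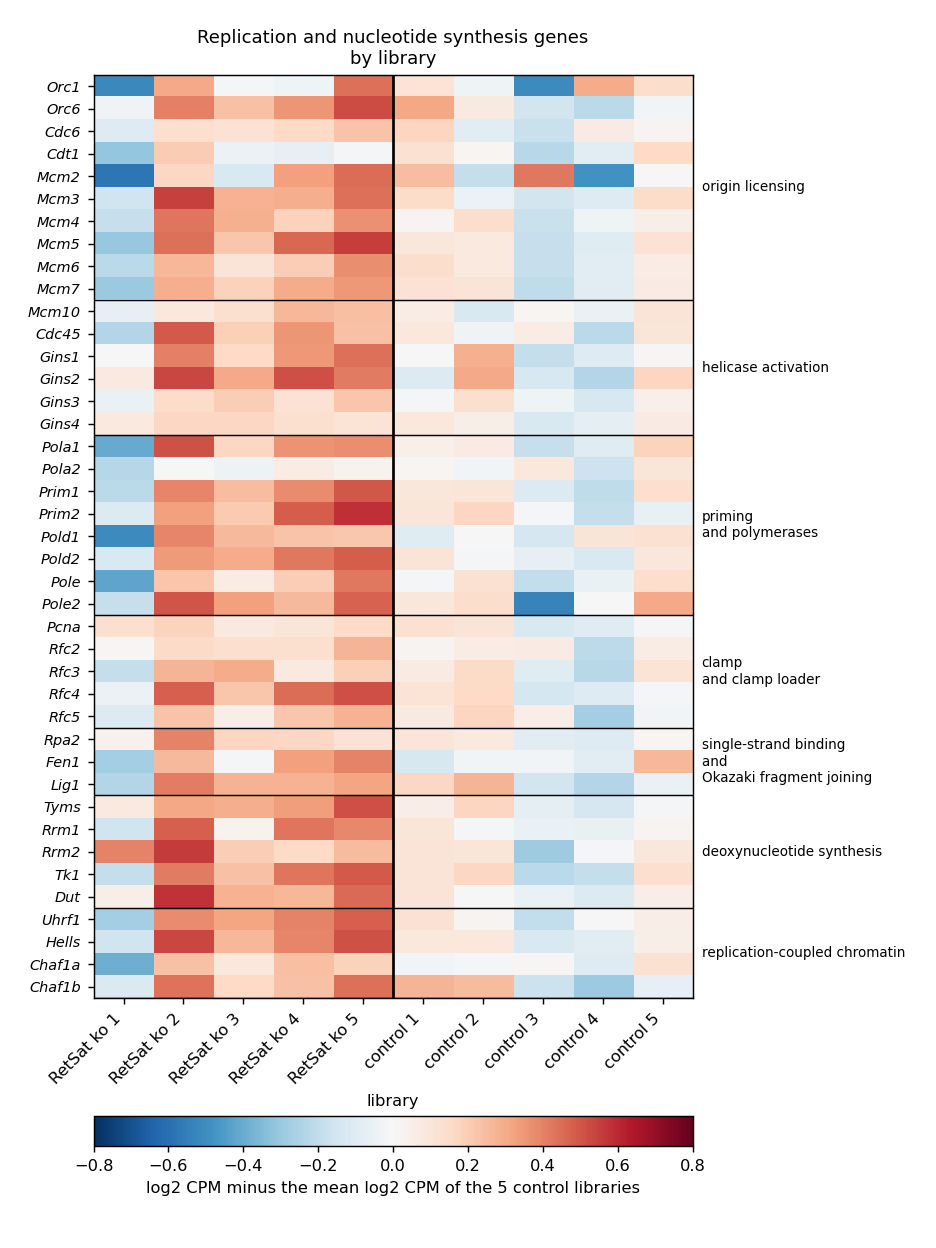
Each row is 1 of the 41 genes, grouped by role, and each column 1 library, RetSat ko on the left and control on the right. Colour gives log2 CPM minus the mean log2 CPM of the 5 control libraries. The columns RetSat ko 2 to 5 are mostly red, with means of 0.34, 0.17, 0.27 and 0.35, while RetSat ko 1 is mostly blue, with a mean of -0.16 and with Rrm2 as its reddest row.

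Without RetSat ko 1, 11 of the 41 genes were called higher in RetSat ko (edgeR, adjusted p under 0.05 over 19001 genes). Of all genes, 1.95% were then called higher and 2.5% lower. The 11 were Mcm3, Mcm4, Mcm5, Prim1, Pold2, Rfc4, Tyms, Tk1, Dut, Uhrf1 and Hells. All 41 log2 fold changes were then above 0, as were those of 54.7% of all genes, with a median of 0.31, the median standard error was 0.0871, and 32 genes had an unadjusted p under 0.05, where 11.4% of all genes were higher at that level. The smallest adjusted p was 0.0253, for Pold2. RetSat ko 2 to 5 were above all 5 control libraries for 21 of the 41 genes, where this held for 5.99% of all genes. With RetSat ko 1 included, all 5 RetSat ko libraries were above all control libraries for 1 of the 41, Rrm2, where this held for 1.58% of all genes. DESeq2 on the same 9 libraries called 21 of the 41, where 5.03% of all genes were called higher, in a fit added after seeing the data. Leaving out any other single library gave 0 edgeR calls among the 41. RetSat ko 1 was on average the lowest library for these same genes. Values without it therefore follow in part from which library was left out. The shares of all genes do not correct for this, and such values are a description.

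**Figure D3:**
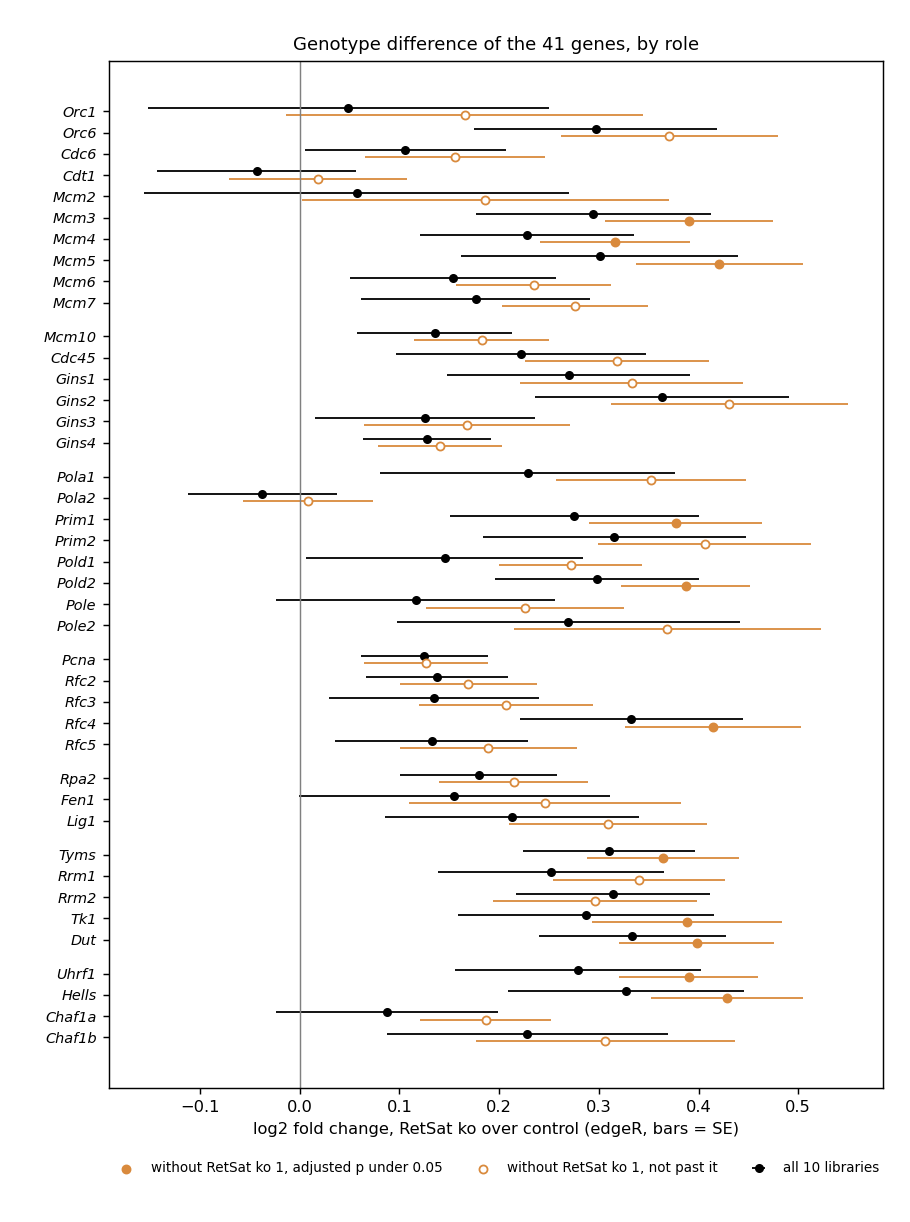
Log2 fold change of RetSat ko over control from edgeR with its standard error, for the 41 genes by role, with all 10 libraries (black) and without RetSat ko 1 (orange; filled where the adjusted p was under 0.05). The black points run from -0.04 to 0.36, none past the threshold, and the orange points run from 0.01 to 0.43, with 11 filled.

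E2F transcription factors are known to switch on many of these genes at entry into S phase through sites near the start of transcription, often beside CCAAT boxes bound by NF-Y. RefSeq promoter windows of 300 bases (250 before the start and 50 after it, build GRCm38.p6) were matched by symbol for 34 of the 41 genes. An E2F match was any of TTTCCCGC, TTTGGCGC, TTTCGCGC or TTTGCCGC on either strand, and a gene counted if any of its windows held a match. Of the 34 genes 15 (44.1%) had one, where 2.6% of 27025 genes did. The letters CCAAT on either strand were in 20 of the 34 (58.8%), where 41.1% of all genes had them, and both kinds were in 9 of the 34 (26.5%), where 1.26% of all genes had both. The median log2 fold change was 0.18 for the 15 genes with an E2F match and 0.23 for the 19 without. An E2F match overlapped CCAAT letters 1 time in the windows of the 34 genes. The 160 bases before the start are shown for Rrm2, Tyms and Dut, whose unadjusted p was smallest, and for Hells, Mcm5 and Mcm6, where the E2F letters are present. They lie at chr12:24708094-24708253 on the plus strand, chr5:30073626-30073785 on the minus strand, chr2:125247355-125247514 on the plus strand, chr19:38930830-38930989 on the plus strand, chr8:75109349-75109508 on the plus strand and chr1:128359706-128359865 on the minus strand. Each is written 5′ to 3′ along its gene, with E2F and CCAAT letters in capitals, ATTGG being CCAAT on the other strand.
Rrm2: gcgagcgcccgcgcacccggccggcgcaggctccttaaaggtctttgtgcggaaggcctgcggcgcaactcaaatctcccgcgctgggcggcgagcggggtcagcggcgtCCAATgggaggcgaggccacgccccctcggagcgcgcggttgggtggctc
Tyms: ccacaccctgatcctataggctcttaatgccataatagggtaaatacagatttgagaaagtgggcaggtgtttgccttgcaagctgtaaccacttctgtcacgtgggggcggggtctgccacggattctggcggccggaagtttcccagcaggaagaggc
Dut: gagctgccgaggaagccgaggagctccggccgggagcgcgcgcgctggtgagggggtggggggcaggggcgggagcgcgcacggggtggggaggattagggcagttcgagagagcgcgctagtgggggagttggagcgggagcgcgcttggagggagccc
Hells: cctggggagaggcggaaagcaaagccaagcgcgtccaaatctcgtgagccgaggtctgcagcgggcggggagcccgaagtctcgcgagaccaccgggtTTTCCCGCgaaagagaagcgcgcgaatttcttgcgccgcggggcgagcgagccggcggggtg
Mcm5: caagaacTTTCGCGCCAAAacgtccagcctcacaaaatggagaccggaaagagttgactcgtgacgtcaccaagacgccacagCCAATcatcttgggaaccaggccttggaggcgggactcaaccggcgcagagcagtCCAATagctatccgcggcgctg
Mcm6: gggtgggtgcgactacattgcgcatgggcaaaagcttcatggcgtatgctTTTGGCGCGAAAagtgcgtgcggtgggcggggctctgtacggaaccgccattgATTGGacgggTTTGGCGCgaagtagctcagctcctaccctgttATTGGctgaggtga
Within these 160 bases Mcm6 held 3 E2F matches, Mcm5 held 2 and Hells held 1, and in Mcm5 and Mcm6 a pair of matches on opposite strands overlap and print as 1 run of capitals. Rrm2, Tyms and Dut held none there. CCAAT letters were present 2 times in Mcm5, 2 times in Mcm6 and 1 time in Rrm2. A match describes letters only and is not a binding site.

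The deoxynucleotide synthesis genes had the highest median log2 fold change of the role groups, 0.31, and the differences between groups were not tested. All 5 were higher at an unadjusted p under 0.05, where 6.79% of all genes were, although none was called with all 10 libraries. Tyms encodes thymidylate synthase, which makes thymidylate from deoxyuridylate. It had 24.5, 28.8, 28.4, 29.3 and 33.2 CPM in RetSat ko libraries 1 to 5, against 24.1, 26.2, 22, 21.1 and 23.0 CPM in control libraries 1 to 5. The 4 highest values were RetSat ko 2 to 5, and RetSat ko 1 lay within the control range (log2 fold change 0.31 ± 0.0865 SE, edgeR adjusted p = 0.291, 0.0336 without RetSat ko 1). Dut encodes the dUTPase that supplies the deoxyuridylate and keeps uracil out of DNA. It had 21.5, 31.1, 25.3, 25 and 28.5 CPM in RetSat ko, against 22.3, 20.9, 20.1, 19.3 and 21.6 CPM in control. Again RetSat ko 2 to 5 were above every control library and RetSat ko 1 was not (0.33 ± 0.0934, edgeR adjusted p = 0.291, 0.0299 without RetSat ko 1).

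Rrm2, the regulated small subunit of ribonucleotide reductase, on chromosome 12 at 24758240 to 24764145 (GRCm39, plus strand), had 32.2, 36.1, 28.0, 27.3 and 29.2 CPM in RetSat ko, against 26.3, 26.1, 20.1, 24.3 and 26.1 CPM in control. It was the single member whose groups did not overlap, where RetSat ko was above control in this way for 1.58% of all genes. RetSat ko 1 was the second highest library for Rrm2 (0.31 ± 0.0972, edgeR adjusted p = 0.299). Unlike the 11 genes called without RetSat ko 1, its fold change was about as large without that library and its adjusted p was 0.111 (0.30 ± 0.102). Rrm1, the large subunit and the lowest of the 5 by RPKM, had 38.4, 59.8, 43.7, 57.8 and 56.0 CPM in RetSat ko, against 45.9, 42.6, 41.4, 41.3 and 43.6 CPM in control. RetSat ko 2, 4 and 5 stood apart above a narrow control range, whose coefficient of variation of 4.49% was the smallest of the 41 genes, while RetSat ko 3 lay inside it and RetSat ko 1 below it (0.25 ± 0.113, edgeR adjusted p = 0.401). Tk1, the cytosolic thymidine kinase of the salvage pathway, averaged 33.0 ± 5.79 CPM in RetSat ko and 27.1 ± 3.42 CPM in control (SD, n = 5 each; 0.29 ± 0.129 SE, edgeR adjusted p = 0.401, 0.0460 without RetSat ko 1).

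**Figure D4:**
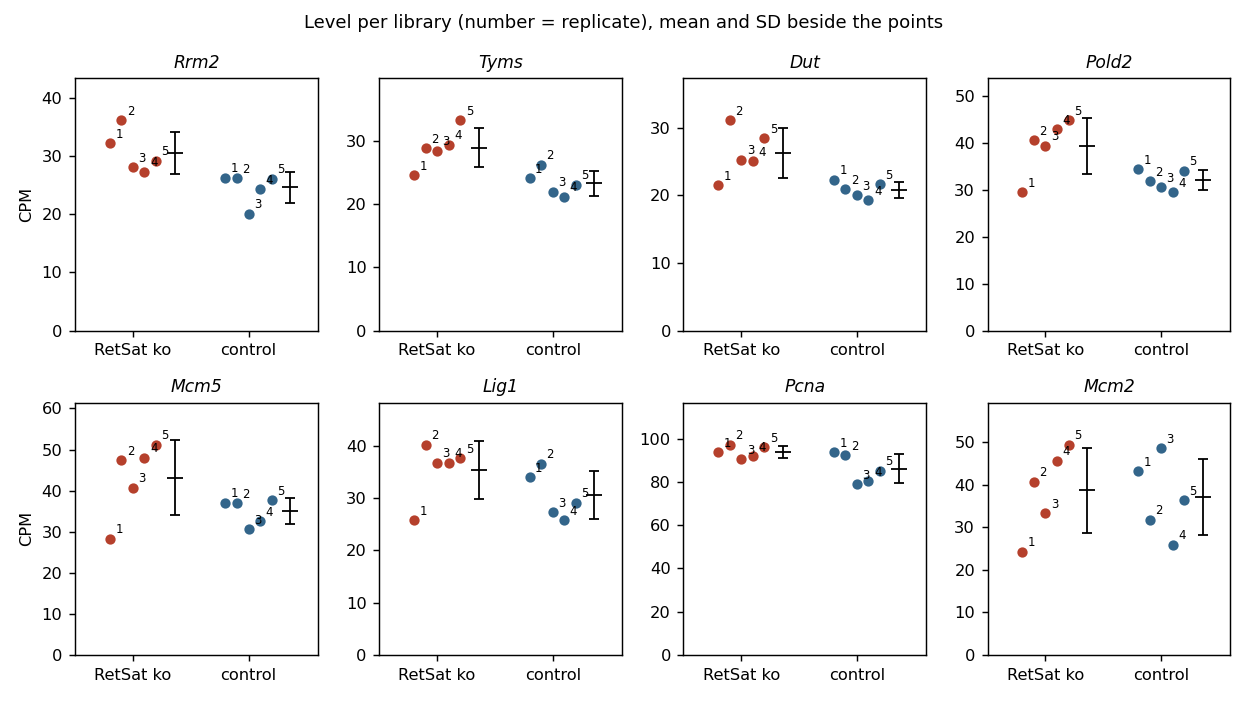
CPM in each library for 8 members, RetSat ko (red) left of control (blue), with the replicate number beside each point and the mean and SD of 5 libraries beside the points. Rrm2 is the panel without overlap (27.3 to 36.1 CPM in RetSat ko, 20.1 to 26.3 CPM in control). In Tyms, Dut, Pold2, Mcm5 and Lig1 the point labelled 1 lies within or under the control points and the other 4 RetSat ko points lie above them, and in Pcna and Mcm2 the groups overlap.

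Of the 10 origin licensing genes 9 had a positive log2 fold change, with a median of 0.17. The 6 genes of the MCM2-7 helicase, the motor that unwinds DNA at the fork, are in this group. Mcm3 had 23.5, 38.4, 31.8, 32.1 and 35.7 CPM in RetSat ko, against 29.1, 25.4, 23.7, 24.4 and 29.1 CPM in control. RetSat ko 1 was the lowest of all 10 libraries and the other 4 RetSat ko libraries were the highest (0.29 ± 0.118 SE, edgeR adjusted p = 0.357, 0.0351 without RetSat ko 1). Mcm5 had the same arrangement, at 43.1 ± 9.13 CPM in RetSat ko and 35.0 ± 3.17 CPM in control (SD, n = 5 each; 0.30 ± 0.139 SE, edgeR adjusted p = 0.412, 0.0319 without RetSat ko 1). Mcm6 had 49.96, 69.7, 62.4, 66.5 and 75 CPM in RetSat ko, against 64.0, 61.2, 51.0, 54.3 and 60.4 CPM in control. Here control 1 reached into the range of the RetSat ko libraries (0.15 ± 0.104, edgeR adjusted p = 0.569). Mcm4 and Mcm7 had log2 fold changes of 0.23 and 0.18, and without RetSat ko 1 their adjusted p was 0.0430 and 0.0556.

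Mcm2 had the smallest log2 fold change of the 6 subunits, but the differences between subunits were not tested. It had 24.3, 40.7, 33.3, 45.7 and 49.4 CPM in RetSat ko, against 43.1, 31.8, 48.7, 26.0 and 36.4 CPM in control. Control 3, in which the 41 genes were low on average, was its highest control library, and the groups overlapped over most of their range (0.06 ± 0.213 SE, edgeR adjusted p = 0.933). The value depended on single libraries, at 0.18 without control 3, 0.19 without RetSat ko 1 and -0.05 without control 4 or without RetSat ko 5. Its coefficient of variation in control, 24.2%, was the largest of the 41 genes, whose median was 9.36%. Of the summed RPKM of the 6 subunits, Mcm2 made up 15.5% in control 3 and between 8.37% and 11.7% in the other 9 libraries.

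Among the factors that load the helicase, Orc6 had the largest log2 fold change, close to those of Mcm3 and Mcm5, and those of Orc1, Cdc6 and Cdt1 were smaller, with the differences between genes not tested. Orc6, a subunit of the origin recognition complex, had 9.26, 12.4, 11.1, 12.0 and 13.5 CPM in RetSat ko, against 11.7, 9.91, 8.50, 8.11 and 9.29 CPM in control. Control 1 and RetSat ko 1 crossed over the ranges of the other group (0.30 ± 0.122 SE, edgeR adjusted p = 0.365, 0.0720 without RetSat ko 1). Orc1 had 1.29, 2.28, 1.84, 1.81 and 2.51 CPM in RetSat ko, against 1.99, 1.80, 1.30, 2.27 and 2.04 CPM in control, and the groups overlapped throughout (0.05 ± 0.201, edgeR adjusted p = 0.94). Cdc6 had a log2 fold change of 0.11 ± 0.101 (edgeR adjusted p = 0.694). Cdt1, which loads the helicase with CDC6, had 22.7 ± 2.85 CPM in RetSat ko and 23.4 ± 2.48 CPM in control (SD, n = 5 each; -0.04 ± 0.0999 SE, edgeR adjusted p = 0.888).

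All 6 helicase activation genes had a positive log2 fold change, with a median of 0.18, and edgeR called none with or without RetSat ko 1. Gins2, a GINS subunit, had the largest log2 fold change of the 41 genes. It had 6.44, 8.82, 7.53, 8.74 and 8.12 CPM in RetSat ko, against 5.66, 7.52, 5.59, 5.18 and 6.87 CPM in control. RetSat ko 3 was barely above control 2, and RetSat ko 1 lay inside the control range (0.36 ± 0.128 SE, edgeR adjusted p = 0.321, 0.0618 without RetSat ko 1). Exons of Gse1 on the opposite strand cover 67.3% of the Gins2 exon length, and the counts do not use strand. Reads wholly in that stretch overlap both genes equally and cannot be assigned to 1 of them, so the level of Gins2 may be understated. Gins1 had 5.09, 6.75, 5.69, 6.48 and 6.93 CPM in RetSat ko, against 5.11, 6.21, 4.46, 4.75 and 5.14 CPM in control, with RetSat ko 1 and 3 inside the control range (0.27 ± 0.121, edgeR adjusted p = 0.401).

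Gins4, by RPKM the highest of the group, varied least between RetSat ko libraries, at 17.3, 18.4, 18.4, 17.9 and 17.6 CPM, against 17.4, 16.9, 15.1, 15.5 and 17.2 CPM in control. The groups overlapped narrowly, with RetSat ko 1 just under control 1 (0.13 ± 0.0640 SE, edgeR adjusted p = 0.441). Gins3, the lowest of the group, had 2.55, 2.92, 3.02, 2.86 and 3.07 CPM in RetSat ko, against 2.61, 2.89, 2.58, 2.42 and 2.72 CPM in control, and the groups overlapped (0.13 ± 0.11, edgeR adjusted p = 0.668). Cdc45 and Mcm10, both needed to start the helicase, had log2 fold changes of 0.22 ± 0.125 and 0.14 ± 0.0777.

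Of the 8 priming and polymerase genes 7 had a positive log2 fold change, with a median of 0.25, and Pold2 and Prim1 were called without RetSat ko 1. Pold2, on chromosome 11 at 5822180 to 5828292 (GRCm39, minus strand), had 29.4, 40.5, 39.3, 42.8 and 44.7 CPM in RetSat ko, against 34.3, 31.8, 30.5, 29.4 and 34.1 CPM in control. RetSat ko 2 to 5 stood clear of the control libraries and RetSat ko 1 was level with the lowest of them (0.30 ± 0.102 SE, edgeR adjusted p = 0.314, 0.0253 without RetSat ko 1). Prim2, the large subunit of primase, had 5.21, 7.06, 6.51, 7.88 and 8.45 CPM in RetSat ko, against 6.02, 6.34, 5.55, 4.92 and 5.38 CPM in control. The arrangement was the same, with a smaller gap (0.32 ± 0.132, edgeR adjusted p = 0.369, 0.0539 without RetSat ko 1). Prim1, the catalytic subunit of primase, had a log2 fold change of 0.28 ± 0.125 (edgeR adjusted p = 0.404, 0.0383 without RetSat ko 1).

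The 2 DNA polymerase alpha subunits, which extend the primer, did not have like values. Pola1, the catalytic subunit, averaged 10.6 ± 2.32 CPM in RetSat ko and 9.06 ± 0.888 CPM in control, while Pola2, the accessory subunit, averaged 23.4 ± 1.78 CPM in RetSat ko and 24.0 ± 1.71 CPM in control (SD, n = 5 each). Their log2 fold changes were 0.23 ± 0.148 and -0.04 ± 0.0748 SE, and the difference between the 2 genes was not tested. Pole, lowest of the group by RPKM, had 5.30, 8.28, 7.42, 8.16 and 9.52 CPM in RetSat ko, against 7.03, 7.74, 6.21, 6.87 and 7.85 CPM in control. The groups overlapped, with RetSat ko 1 lowest and RetSat ko 5 highest (0.12 ± 0.140, edgeR adjusted p = 0.763). Pold1, the catalytic subunit of polymerase delta, and Pole2, the second subunit of polymerase epsilon, had log2 fold changes of 0.15 ± 0.139 and 0.27 ± 0.172.

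All 5 clamp and clamp loader genes had a positive log2 fold change, with a median of 0.13. Pcna had 93.7, 97.3, 90.7, 92.0 and 96.2 CPM in RetSat ko, against 93.7, 92.4, 79.0, 80.5 and 85.3 CPM in control. The RetSat ko libraries were close together, control 1 and 2 lay among them, and control 3 to 5 lay below (0.13 ± 0.0634 SE, edgeR adjusted p = 0.442). Leaving out RetSat ko 1 hardly moved it (0.13 ± 0.0624, edgeR adjusted p = 0.248). Rfc4, a subunit of the clamp loader that opens the PCNA ring, had 10.5, 15.1, 12.6, 14.8 and 15.5 CPM in RetSat ko, against 11.7, 12.1, 9.82, 10.1 and 10.7 CPM in control. RetSat ko 2 to 5 were above every control library (0.33 ± 0.112, edgeR adjusted p = 0.314, 0.0336 without RetSat ko 1). Exons of Eif4a2, a much more abundant gene on the opposite strand, cover 12.7% of its exon length.

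Rfc3, the lowest of the group by RPKM, had 12.3, 16.9, 17.2, 14.8 and 16.0 CPM in RetSat ko, against 14.6, 15.6, 13.1, 12.0 and 15.1 CPM in control, and the groups overlapped (0.13 ± 0.105 SE, edgeR adjusted p = 0.622). Rfc2 and Rfc5, the other loader subunits, had log2 fold changes of 0.14 ± 0.0711 and 0.13 ± 0.0968. Rfc4 therefore had the largest value of the 4 loader subunits, which is a description, since the differences between subunits were not tested.

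All 3 genes for single-strand binding and Okazaki fragment joining had a positive log2 fold change, with a median of 0.18, and edgeR called none with or without RetSat ko 1. Rpa2, a subunit of the protein that coats single-stranded DNA, had 18.8, 24.2, 20.7, 20.6 and 19.9 CPM in RetSat ko, against 19.6, 19.4, 17.3, 17.1 and 18.6 CPM in control. RetSat ko 2 to 5 were above every control library, by a narrow margin for RetSat ko 5 (0.18 ± 0.0784 SE, edgeR adjusted p = 0.390). Lig1, the ligase that seals Okazaki fragments and the highest of the 3 by RPKM, had 25.7, 40.1, 36.7, 36.7 and 37.6 CPM in RetSat ko, against 33.9, 36.5, 27.3, 25.7 and 29.1 CPM in control. RetSat ko 1 stood far below the other RetSat ko libraries, at the level of control 4 (0.21 ± 0.127, edgeR adjusted p = 0.515, 0.0918 without RetSat ko 1). Fen1, the flap endonuclease and the lowest of the 3, had 1.6, 2.31, 1.91, 2.42 and 2.54 CPM in RetSat ko, against 1.76, 1.90, 1.90, 1.81 and 2.32 CPM in control, and the groups overlapped (0.16 ± 0.156, edgeR adjusted p = 0.712). Gm10143 on the opposite strand covers 78.8% of the Fen1 exon length, and had a median count of 6.5, against 235 for Fen1. Reads wholly in that stretch overlap both genes equally and cannot be assigned to 1 of them. The level of Fen1 may therefore be understated.

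All 4 genes for chromatin at the fork had a positive log2 fold change, with a median of 0.25, and Uhrf1 and Hells were called without RetSat ko 1. Hells encodes a chromatin remodeller needed for DNA methylation. It had 13.3, 21.5, 17.8, 19.4 and 21.2 CPM in RetSat ko, against 15.7, 15.7, 13.6, 14.0 and 15.3 CPM in control. RetSat ko 1 was the lowest of all libraries and RetSat ko 2 to 5 the highest (0.33 ± 0.118 SE, edgeR adjusted p = 0.323, 0.0263 without RetSat ko 1). Uhrf1, which brings the maintenance methyltransferase to newly copied DNA, had 17.9, 28.0, 26.8, 28.4 and 30.0 CPM in RetSat ko, against 23.4, 21.8, 18.8, 21.6 and 22.3 CPM in control. The same split was seen, with RetSat ko 1 under every control library (0.28 ± 0.124, edgeR adjusted p = 0.396, 0.0263 without RetSat ko 1). Chaf1b, a subunit of the histone chaperone CAF-1 and the lowest of the 4 by RPKM, had 6.37, 9.31, 7.71, 8.11 and 9.36 CPM in RetSat ko, against 8.33, 8.21, 6.12, 5.63 and 6.59 CPM in control, and the groups overlapped (0.23 ± 0.141, edgeR adjusted p = 0.528). Chaf1a, its partner, had a log2 fold change of 0.09 ± 0.111, and exons of Ubxn6 on the opposite strand cover 52.5% of its exon length.

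Other genes of the same pathways were counted from lists that hold none of the 41. Of 32 other replication fork and licensing genes, 28 had a positive log2 fold change with a median of 0.13. edgeR called 0 with all libraries, and 7 were higher at an unadjusted p under 0.05, where 6.79% of all genes were. Without RetSat ko 1 edgeR called 5 higher, where 1.95% of all genes were called. DESeq2 called 2 of the 32 higher with all 10 libraries, where 0.36% of all genes were. Rnaseh2c, a subunit of the RNase that removes ribonucleotides from DNA, had 31.7, 36.5, 35.4, 30.7 and 34.4 CPM in RetSat ko, against 27.3, 27.1, 25.4, 24.6 and 29.8 CPM in control. Rpa3, the smallest subunit of the single-strand binding protein, had 17.1, 19.2, 18.1, 17.4 and 18.4 CPM in RetSat ko, against 14.1, 16.0, 13.8, 13.5 and 15.9 CPM in control. For both genes the groups did not overlap, RetSat ko 1 included (0.33 ± 0.0731 and 0.30 ± 0.0721 SE, edgeR adjusted p = 0.291 for each). RetSat ko was above control in this way for 1.58% of all genes, and both genes were named for a small unadjusted p. Asf1b, a histone chaperone, and Orc2 had log2 fold changes of 0.43 ± 0.128 and 0.34 ± 0.130, with RetSat ko 1 within the control range for Asf1b and under every control library for Orc2.

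Of 30 other nucleotide synthesis genes, 23 had a positive log2 fold change and 7 a negative one. The median was 0.16, and values ran from -0.34 to 0.35. Their summed level was 1378 ± 49.3 CPM in RetSat ko and 1389 ± 36.4 CPM in control (SD, n = 5 each). edgeR and DESeq2 called 0 with all libraries. At an unadjusted p under 0.05 in edgeR 4 were higher and 0 lower, where 6.79% of all genes were higher. Without RetSat ko 1 edgeR called 6 higher, where 1.95% of all genes were called. Nme1, a nucleoside diphosphate kinase, had 46.1, 55.2, 48.0, 43.8 and 51.7 CPM in RetSat ko, against 43.0, 38.9, 41, 33.3 and 40.4 CPM in control. The groups did not overlap, where RetSat ko was above control in this way for 1.58% of all genes (0.32 ± 0.0837 SE, edgeR adjusted p = 0.291). Dtymk, the thymidylate kinase that acts after thymidylate synthase, had a log2 fold change of 0.35 ± 0.0926 (edgeR adjusted p = 0.291, 0.0298 without RetSat ko 1). Nme2 and Atic, an enzyme of purine synthesis, had values of 0.16 ± 0.0632 and 0.26 ± 0.109.

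Among E2F and RB regulators, 31 of 33 listed genes were tested, 18 had a positive log2 fold change and the median was 0.08. edgeR and DESeq2 called 0 with all libraries. At an unadjusted p under 0.05 in edgeR 5 were higher and 3 lower, where 6.79% of all genes were higher and 5.45% lower. Without RetSat ko 1 edgeR called 3 higher and 1 lower, where 1.95% of all genes were called higher and 2.5% lower. Rb1, which encodes the retinoblastoma protein that restrains E2F, had 62.9, 47.1, 50.2, 52.4 and 47.5 CPM in RetSat ko, against 60.4, 62.5, 65.1, 64.5 and 59.9 CPM in control. RetSat ko 2 to 5 were under every control library and RetSat ko 1 was within the control range (-0.26 ± 0.0797 SE, edgeR adjusted p = 0.291, 0.0246 without RetSat ko 1). Rbl2, its relative, had a log2 fold change of -0.22 ± 0.0914 (edgeR adjusted p = 0.367). Cdk2, the S phase kinase, and Ccna2, its cyclin, had values of 0.33 ± 0.0965 and 0.36 ± 0.119, and both were called higher without RetSat ko 1, with adjusted p of 0.0353 and 0.0274.

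The libraries high in the 41 genes were also high in markers of division. All 18 mitosis markers had a positive log2 fold change with a median of 0.28. edgeR and DESeq2 called 0 of them with all libraries. At an unadjusted p under 0.05 in edgeR 8 were higher, where 6.79% of all genes were. Without RetSat ko 1, on average the lowest library for these markers too, edgeR called 14 higher, where 1.95% of all genes were called. The mean log2 CPM of the mitosis markers relative to control was -0.20, 0.41, 0.21, 0.44 and 0.42 in RetSat ko libraries 1 to 5. It was 0.07, 0.10, -0.08, -0.08 and 0.00 in control libraries 1 to 5, the same split of RetSat ko 1 from the others. Crypt stem cell markers had 9 of 10 values above 0 with a median of 0.20, and a summed level of 675 to 1010 CPM in RetSat ko and 649 to 881 CPM in control. Paneth cells sit beside the stem cells at the crypt base, and all 9 of their markers had a positive value, with a median of 0.83. edgeR called 0 of the 9, and 6 were higher at an unadjusted p under 0.05, where 6.79% of all genes were. The 9 Paneth markers summed to 2146 to 5240 CPM in RetSat ko and 1126 to 3508 CPM in control, with RetSat ko 1 the lowest of the RetSat ko libraries. Goblet cell markers had 2 of 8 values above 0 with a median of -0.04. They summed to 13122 CPM in RetSat ko 1, above every other library, with 6396 to 8573 CPM in RetSat ko 2 to 5 and 8516 to 10419 CPM in control. Absorptive enterocyte markers had 0 of 18 values above 0 with a median of -0.35. edgeR called 0 of the 18, and 6 were lower at an unadjusted p under 0.05, where 5.45% of all genes were. In RetSat ko 1 the enterocyte markers were nearest to the control mean of the RetSat ko libraries, at -0.09, with -0.53 to -0.33 in RetSat ko 2 to 5. Control libraries 1 to 5 had 0.08, -0.31, 0.47, -0.24 and -0.003, so control 2 and control 4 were low as well. The part of the crypt to villus and Paneth or goblet cell composition of the samples in the values of the 41 genes was not tested.

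**Figure D5:**
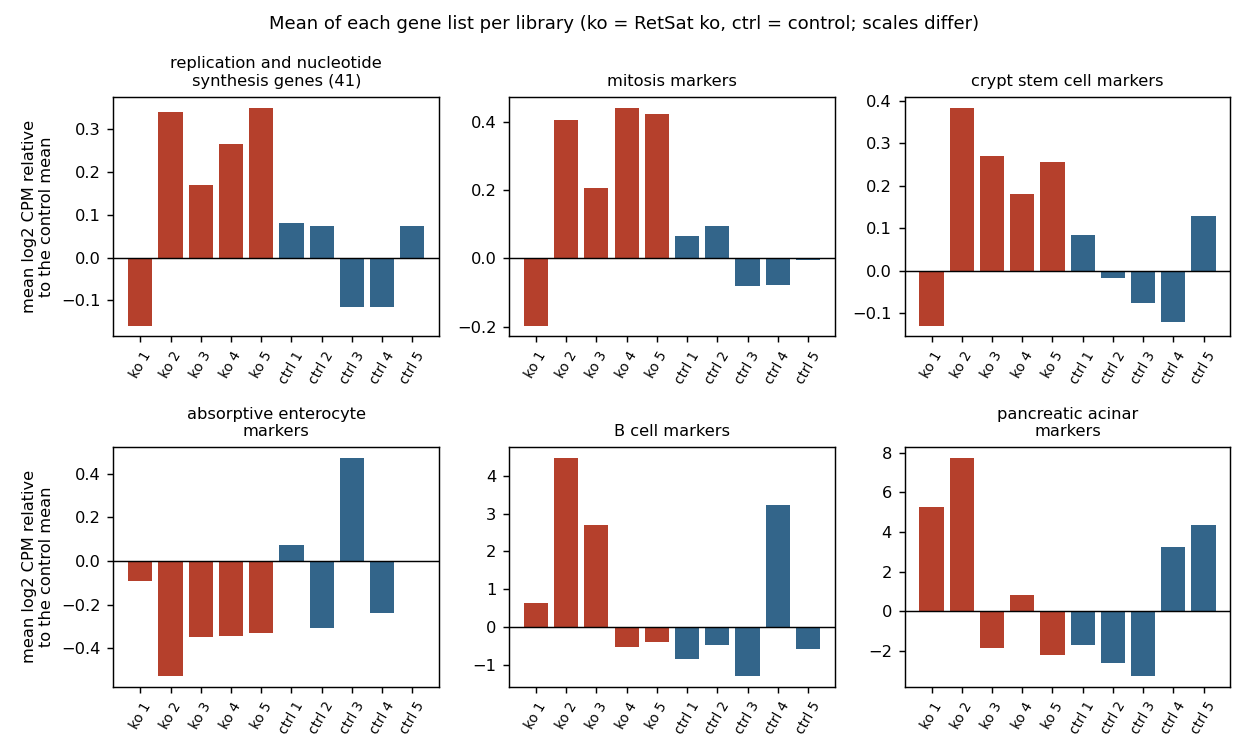
Mean log2 CPM of each gene list relative to the mean of the 5 control libraries, per library, RetSat ko (red) left of control (blue), on a scale of its own in each panel. RetSat ko 1 is negative for the 41 genes (-0.16), mitosis markers (-0.20) and crypt stem cell markers (-0.13), where RetSat ko 2 to 5 are positive, and B cell markers are high in RetSat ko 2 (4.47), RetSat ko 3 (2.71) and control 4 (3.22).

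Lymphoid and pancreatic transcripts differed between libraries as well. B cell markers, all 8 tested of 10 listed, had positive log2 fold changes with a median of 1.26. edgeR called 0 of them, and 0 had an unadjusted p under 0.05. Their summed level was 11.0 to 162 CPM in RetSat ko and 7.92 to 71.0 CPM in control, with the high libraries RetSat ko 2, RetSat ko 3 and control 4. Germinal centre B cells divide rapidly, and their markers summed to 3.11 to 5.78 CPM in RetSat ko and 2.21 to 4.23 CPM in control, with no marker at 0 in all libraries. Pancreatic acinar markers, 11 tested of 12 listed, all had positive values, with 0 called by edgeR and 0 at an unadjusted p under 0.05. They summed to 35.7 to 2860 CPM in RetSat ko and 24.7 to 293 CPM in control. Without the 3 libraries highest in B cell markers, 37 of the 41 genes had a positive log2 fold change, the median was 0.12, 2 genes (Tyms and Rrm2) had an unadjusted p under 0.05 where 2.29% of all genes were higher at that level, and 0 were called, where 0.0158% of all genes were called higher. That fit keeps RetSat ko 1 among 3 RetSat ko libraries. Without RetSat ko 1 as well, which leaves 2 RetSat ko and 4 control libraries, 40 of the 41 were positive with a median of 0.28, 25 had an unadjusted p under 0.05 where 8.67% of all genes were higher at that level, and 0 were called, where 0.0153% of all genes were called higher. The smallest adjusted p was then 0.068. The 4 libraries highest in acinar markers were RetSat ko 1, RetSat ko 2, control 4 and control 5, so a fit without them also leaves out RetSat ko 1. In that fit the median was 0.27, against 0.31 without RetSat ko 1 alone, and 0 of the 41 were called, where 0.0211% of all genes were called higher. At an unadjusted p under 0.05, 18 of the 41 were higher, where 7.97% of all genes were.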

How the data were processed

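Per the labels, DNase-treated RNA from RNeasy columns went into NEBNext Ultra II RNA libraries. Each deposited file holds the raw read counts of 1 library. The submitters' processing notes name Trimmomatic, STAR and the build GRCm39 (mm39). Counts were made with featureCounts 2.0.1 over GENCODE M28 exons, with a read going to the gene of largest overlap and no option for strand, pairs or multiple alignments, per the file headers. The deposited files also give each gene's exon length, used for RPKM. Reads lying wholly in exons of 2 genes on opposite strands overlap both equally and cannot be assigned, so levels of such genes may be understated. Reads of near-identical copies are uncertain.

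Symbols were matched for 52081 of 55414 identifiers (94.0%), and 0.81% of counts had none. Genes past filterByExpr were scaled with TMM and compared with edgeR 4.0.16 in R 4.3.3 (quasi-likelihood test, no covariates, Benjamini-Hochberg adjustment over all tested genes, threshold 0.05). CPM are per 1000000 of the TMM-adjusted size, and log2 CPM used a prior count of 2. Alternatives were RLE and upper-quartile factors, 2 other filters, DESeq2 1.42.0 (which gave no adjusted p for Orc1 and Fen1), limma 3.58.1 with voom sample weights, a replicate block, and fits leaving out single libraries or those highest in B cell or acinar markers. Copies were searched with blastn 2.17.0. On simulated counts (RetSat ko against control, 18303 genes, 50 changed per size), edgeR recovered 4% of 1.25-fold, 26% of 1.5-fold and 80% of 2-fold changes, with 6.36% false among 110 calls. DESeq2 recovered 12% of 1.25-fold and 48% of 1.5-fold changes, with 27.1% false among 170 calls.

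Depth was 102844680 to 128730695 counts per library. No pair of libraries agreed within sampling noise, since the chi-square per degree of freedom was at least 54.5 over 45 pairs. The members and gene lists were chosen with earlier results of these data known. All 41 genes may be named. In each role group, values per library are given for the pair with the smallest unadjusted p and for the highest and lowest by RPKM, and 4 genes are named per other list.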

Additional observations from a re-analysis of the deposited data

Results flagged for a closer look

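Within each group of 5 libraries, the highest and the lowest value of each of the 41 genes were compared with the next one by Dixon's ratio, at the critical value of 0.71. Of 84 groups tested (the 41 genes and their mean in both genotypes), 6 had a value that stood apart, where chance gives about 1 in 20. In RetSat ko 1, Pold1 had 13.9 CPM, against 22.8 to 25.8 CPM in the other RetSat ko libraries. Lig1 had 25.7 CPM there, against 36.7 to 40.1 CPM in the others. Uhrf1 had 17.9 CPM there, against 26.8 to 30.0 CPM in the others. Chaf1a had 11.1 CPM there, against 15.4 to 17.1 CPM in the others. These 4 genes were low in the library that was lowest for 19 of the 41. In control 4, Rfc2 had 30.8 CPM, with 36.2 to 37.2 CPM in the other 4. Fen1 stood apart upwards in control 5, at 2.32 CPM, with 1.76 to 1.90 CPM in the other 4 control libraries.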

How the results depend on the processing

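With RLE or upper-quartile factors, no filter, or a filter of 1 CPM in 5 libraries, 0 of the 41 genes were called and the number of positive log2 fold changes stayed at 39. The number of all genes called was 6, against 123 with DESeq2, 12 with limma-voom and 2486 with DESeq2 without RetSat ko 1. The number of the 41 genes called higher was 0, against 21 with DESeq2 without RetSat ko 1. Leaving out 1 library gave 5 to 846 calls over all genes and 0 to 11 among the 41, with the highest numbers without RetSat ko 1, and a median log2 fold change of the 41 of 0.15 to 0.31. The cause was not tested. With the replicate number as a block, 4 genes and 0 of the 41 were called, with a median of 0.21. Same-numbered libraries correlated at -0.149 to 0.002 in their deviations from the group means. The labels do not say that the numbers pair the samples, and these correlations cannot show that they do not. Of 861 values of single genes under 21 alternatives, 817 kept their sign and side of the threshold, 32 passed the threshold and 12 changed sign, for Orc1, Mcm2, Cdt1, Pola2 and Rfc3. Over the fits that leave out 1 library, the log2 fold change of Orc1 ranged from -0.061 to 0.165, that of Mcm2 from -0.048 to 0.186, that of Cdt1 from -0.111 to 0.018 and that of Pola2 from -0.078 to 0.0083. Leaving out the 3 B cell-rich libraries gave -0.012 for Mcm2 and -0.028 for Rfc3. DESeq2 on the 9 libraries other than RetSat ko 1 gave 0.0033 for Cdt1, and edgeR on the 6 libraries left when that library and the B cell-rich ones are dropped gave 0.0032 for Pola2. Both of these fits were chosen after seeing the data.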
